A study of Caenorhabditis elegans with 32 samples.

Results

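The 10 genes described here encode the fatty acid desaturases *fat-1*, *fat-2*, *fat-3*, *fat-4*, *fat-5*, *fat-6* and *fat-7* and the fatty acid elongases *elo-1*, *elo-2* and *elo-5* of *Caenorhabditis elegans*. They were chosen by gene name, with no measured value in the rule, and all 10 were found among the 46589 genes of the count table and passed the filter on low counts in every comparison. RNA-seq was performed on poly(A) RNA of whole animals that had been synchronized by bleaching. The sample labels give the stage as L4/young adult. The 4 genotypes were grown on nematode growth medium (NGM) or on the same medium with 2% glucose, with 4 libraries in each of the 8 groups and 32 in all. The genotypes were wild type (WT, the N2 Bristol strain), *pgph-2 o/e*, *hlh-30(tm1978)*, written *hlh-30* here, and *pgph-2 o/e; hlh-30(tm1978)*, called the double strain. The *pgph-2 o/e* animals carry an integrated transgene of *pgph-2*, which encodes a phosphoglycolate and glycerol-3-phosphate phosphatase, under its own promoter, with an mCherry co-injection marker that WT and *hlh-30* lack. *hlh-30* encodes the worm counterpart of the transcription factor TFEB, which controls autophagy and lipid breakdown genes. Animals of every group were fed OP50 bacteria.

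Worms make their unsaturated fatty acids from saturated precursors by a chain of membrane-bound enzymes. The palmitoyl-CoA desaturase FAT-5 and the stearoyl-CoA desaturases FAT-6 and FAT-7 place the first double bond, FAT-2 converts oleic into linoleic acid, FAT-1 forms omega-3 fatty acids, and FAT-3 and FAT-4 add the further double bonds of the long polyunsaturated fatty acids. ELO-2 lengthens palmitic acid to stearic acid, ELO-1 lengthens polyunsaturated intermediates between the steps of FAT-3 and FAT-4, and ELO-5 serves the monomethyl branched-chain fatty acids. Most of these enzymes are known for their activity in the intestine, the main fat store of the worm.

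Of the 10 genes, 8 lie on chromosome IV of the WBcel235 build. *fat-4* (T13F2.1, IV:9799427-9802226) and *fat-3* (W08D2.4, IV:9803026-9806118) are neighbours on the plus strand, 799 bases apart, and *fat-1* (Y67H2A.8, IV:13315642-13318783) and *fat-2* (W02A2.1, IV:13323850-13326394) are separated by 5066 bases on the same strand. *elo-1* (F56H11.4, IV:9526359-9528350) is on the plus strand, while *fat-6* (VZK822L.1, IV:11913690-11915687), *elo-2* (F11E6.5, IV:17466060-17467408) and *elo-5* (F41H10.7, IV:5374598-5377275) are on the minus strand. *fat-7* (F10D2.9, V:7151356-7153146, minus strand) and *fat-5* (W06D12.3, V:17723780-17726825, plus strand) are on chromosome V. Values are for whole genes, with exons counted together. *fat-6* and *fat-7* are close paralogs. Reads that match both genes could be divided between them or left out, and the individual levels of both carry that uncertainty. The sources used here do not say whether strand was used in counting. *fat-5* overlaps *twk-42* and *elo-5* overlaps F41H10.3, both on the opposite strand and detected at 7.74 to 18.3 and 48.4 to 74.8 CPM (a gene's counts scaled to the size of the library), respectively, so that reads of these pairs cannot be told apart without strand.

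Library totals ranged from 16750042 to 29794842 counts, and each of the 10 genes had at least 230 counts in every library. Levels are given as CPM after scaling by the trimmed mean of M values (TMM), and as CPM per kb of exon where genes are compared with each other. *pgph-2* was higher in *pgph-2 o/e* than in WT, with log2 fold changes of 0.87 on NGM and 0.86 on glucose, and *hlh-30* transcripts were lower in *hlh-30* animals, by -0.86 and -0.56. Both genes therefore differed in the direction of their labels within each medium. The paper reports a larger rise of *pgph-2* mRNA in this line than was seen here. WT on glucose had 63.5 to 73.7 CPM of *pgph-2*, within the range of *pgph-2 o/e* on NGM. The *pgph-2* check therefore separates *pgph-2 o/e* from WT only within a medium. On NGM the double strain had 107 to 137 CPM of *pgph-2*, above the 60.8 to 86.6 CPM of *pgph-2 o/e*. On glucose it had 73.7 to 91.3 CPM, below the 106 to 143 CPM of *pgph-2 o/e*. The lowest of these double-strain libraries was level with the highest WT library on glucose. Replicate 1 of *pgph-2 o/e* on NGM stood apart, with a TMM factor of 0.781 against 0.949 to 1.07 in the other 31 libraries, and the calls that rest on it are also given without it. All 9 intestinal markers were detected in every library. Germline and yolk markers differed greatly between groups: the summed level of 36 sperm genes was 1239 to 2178 CPM in WT on NGM and 1620 to 3436 CPM in WT on glucose, 2530 to 4236 CPM in *pgph-2 o/e* on NGM, and 76.1 to 1197 CPM in the other 5 groups. The 17 oocyte and early embryo genes summed to 249 to 1608 CPM and the 6 vitellogenins, which are yolk protein genes, to 24.4 to 922 CPM over the 32 libraries. In whole animals, fewer cells of a type and less RNA per cell cannot be told apart.

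**Figure D1:**
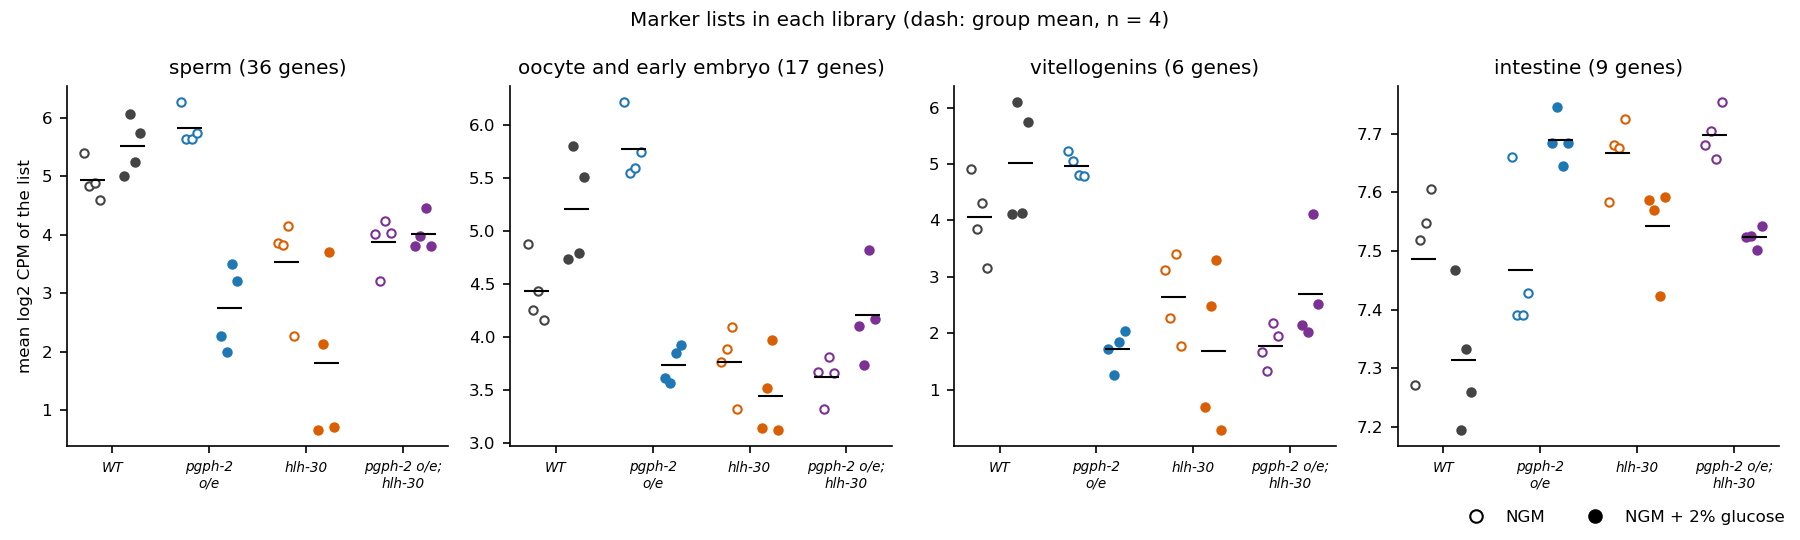
Mean log2 CPM (y axis) of marker gene lists in each of the 32 libraries, by genotype, on NGM (open circles) and with 2% glucose (filled circles), with a dash for the mean of 4 libraries. The sperm genes are lower in *pgph-2 o/e* on glucose and in all *hlh-30* and double-strain groups than in WT, and the group means of the 9 intestinal genes lie between 7.31 and 7.70.

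Within WT animals on NGM, *fat-2* had the highest level of the 10 genes, 605 CPM per kb, followed by *fat-6* at 482, *elo-1* at 436, *fat-1* at 317, *elo-5* at 301, *elo-2* at 261, *fat-4* at 234 and *fat-3* at 127 CPM per kb. *fat-7* and *fat-5* were the lowest, at 35.5 and 19.6 CPM per kb. The levels per kb of *fat-5* and *fat-6*, and so the place of *fat-6* in this order, depend on the exon lengths used. On glucose the WT level of *fat-7* was 211 CPM per kb and that of *fat-5* was 93.6. Across the 8 groups, the highest group mean exceeded the lowest by 12.9-fold for *fat-7* and by 7.83-fold for *fat-5*, against 1.97-fold for *elo-5*, 1.91-fold for *fat-6*, 1.88-fold for *elo-2*, 1.41-fold for *elo-1*, 1.40-fold for *fat-2*, 1.26-fold for *fat-3*, 1.24-fold for *fat-1* and 1.17-fold for *fat-4*. The family therefore held 2 low and widely varying members and 8 that stayed within a 2-fold range of group means.

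**Figure D2:**
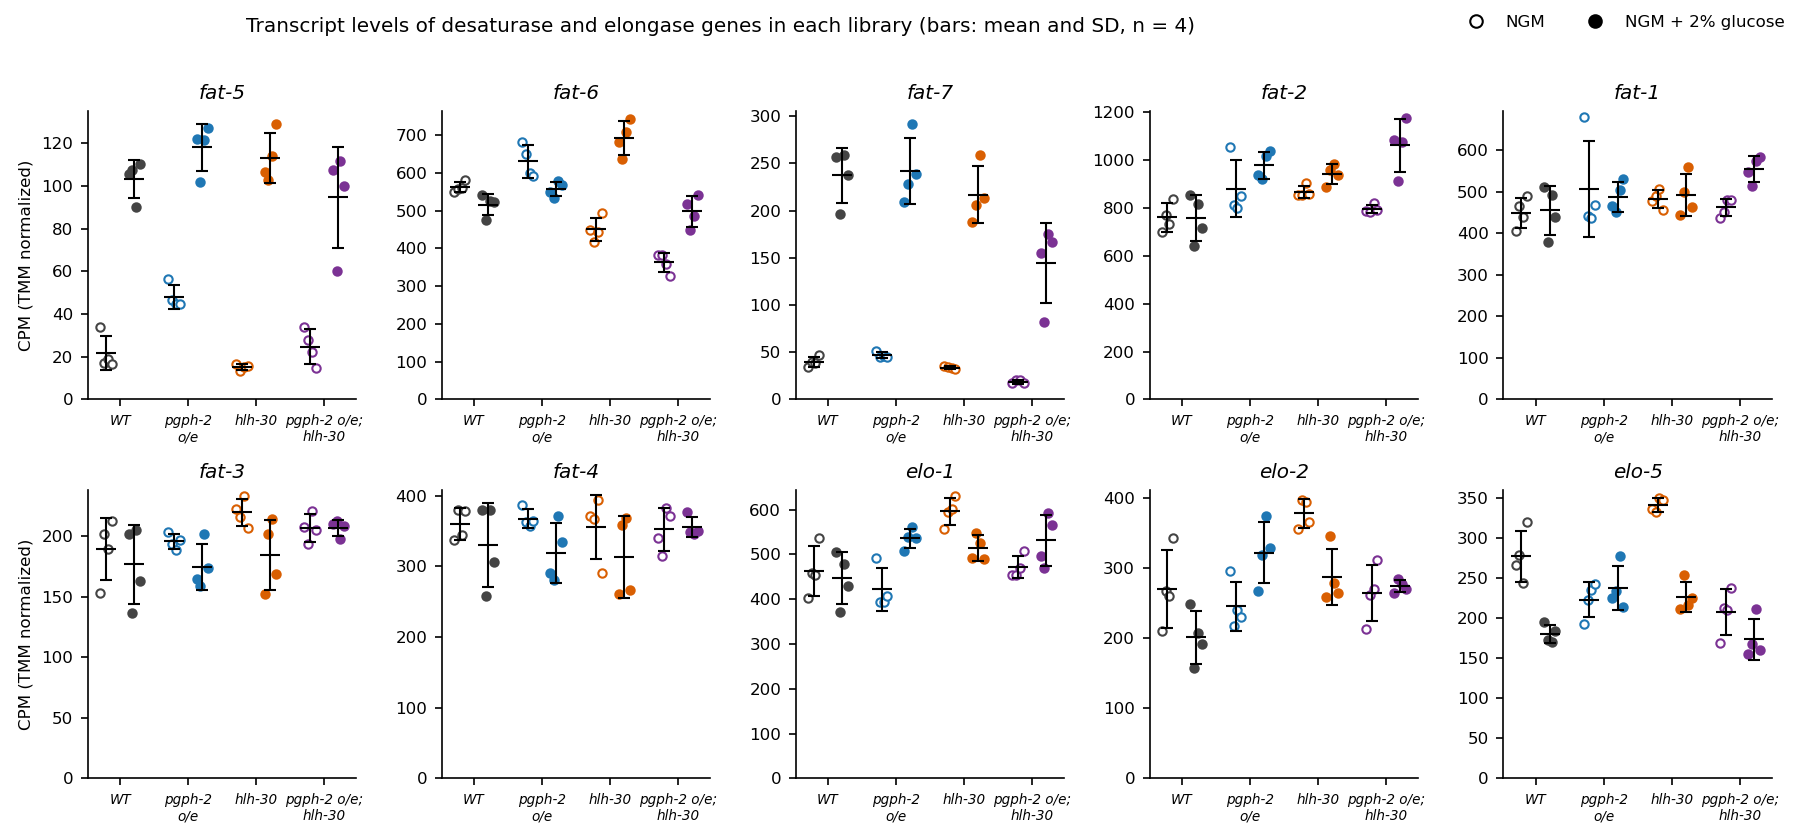
TMM-normalized CPM (y axis, from 0) of each of the 10 genes in every library, by genotype, on NGM (open circles) and with 2% glucose (filled circles), with the mean and SD of 4 libraries. *fat-5* and *fat-7* are higher on glucose in all 4 genotypes without overlap, and *fat-3* and *fat-4* differ little between groups.

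The first question was how glucose excess changed these genes in each genotype. *fat-7*, a stearoyl-CoA desaturase, rose on glucose in all 4 genotypes. In WT animals its level was 33.9, 40.2, 38.9 and 46.7 CPM in the 4 NGM libraries and 257, 196, 259 and 238 CPM in the glucose libraries, so that the lowest glucose library was more than 4 times the highest NGM library. In *pgph-2 o/e* it was 51.8, 45.1, 46.4 and 45.1 CPM on NGM and 209, 228, 292 and 239 CPM on glucose. In *hlh-30* animals the NGM libraries held 34.9, 34.6, 33.4 and 32.2 CPM and the glucose libraries 188, 206, 259 and 214 CPM. The double strain had the lowest levels on both media, 17.0, 20.4, 20.4 and 17.1 CPM on NGM and 155, 81.8, 175 and 166 CPM on glucose. In this order the log2 fold changes were 2.58 ± 0.12 (SE), 2.36 ± 0.12, 2.70 ± 0.10 and 2.95 ± 0.20, which are 5.98-, 5.15-, 6.51- and 7.71-fold (edgeR quasi-likelihood test, P adjusted by Benjamini-Hochberg over all genes tested, adjusted P = 6.72e-06, 3.28e-07, 2.29e-06 and 8.63e-06). The response of *fat-7* was not shown to differ between *pgph-2 o/e* and WT (difference of log2 fold changes -0.23, 95% interval -0.56 to 0.11, edgeR adjusted P = 0.294) or between *hlh-30* and WT (0.09, -0.21 to 0.40, edgeR adjusted P = 0.726). That of the double strain was not tested against WT.

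*fat-5*, the palmitoyl-CoA desaturase, also rose on glucose in every genotype, but from NGM levels that differed between genotypes. WT libraries held 33.7, 17.0, 19.1 and 16.8 CPM on NGM, where replicate 1 lay above the other 3, and 105, 107, 90.3 and 110 CPM on glucose. Those of *pgph-2 o/e* held 56.2, 46.6, 44.7 and 44.5 CPM on NGM and 122, 102, 121 and 127 CPM on glucose. *hlh-30* had the lowest NGM mean, with 16.5, 13.2, 15.1 and 15.5 CPM, and reached 107, 103, 114 and 129 CPM on glucose. The double strain had 34.0, 27.8, 22.2 and 14.8 CPM on NGM and 108, 60.0, 112 and 99.8 CPM on glucose. On glucose the 4 genotypes overlapped with their neighbours in the order of levels, whereas on NGM *pgph-2 o/e* lay above all other NGM libraries. The log2 fold changes on glucose were 2.26 ± 0.21 (SE) in WT, 1.30 ± 0.11 in *pgph-2 o/e*, 2.93 ± 0.10 in *hlh-30* and 1.93 ± 0.23 in the double strain (edgeR adjusted P = 0.000454, 9.42e-06, 2.29e-06 and 0.000471). The response was smaller in *pgph-2 o/e* than in WT by 0.96 ± 0.25 on the log2 scale (interaction -0.96, edgeR adjusted P = 0.00586), with log2 fold changes of -1.16 to -0.78 when the libraries of one replicate number were left out of all 4 groups in turn. That call was lost without replicate 2 and without replicate 4 (highest edgeR adjusted P = 0.0700), and with the sperm gene mean as a covariate the estimate was 0.21. In *pgph-2 o/e* all 35 sperm genes tested fell on glucose, with a median of -2.99, and their part in this difference was not tested beyond that fit.

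In WT animals, 3 of the 10 genes passed the test on glucose, 2 of them higher, where 3.61% of all genes passed and 1.19% rose. Ranked by fold change among the 138 genes that rose in WT on glucose and averaged 5 CPM or more, *fat-7* was at rank 4 and *fat-5* at rank 6. In *hlh-30* animals *fat-5* and *fat-7* were at ranks 2 and 4 of 894 such genes, and in the double strain *fat-7* and *fat-5* were at ranks 5 and 18 of 779. In *pgph-2 o/e*, where 1914 such genes rose, *fat-7* was at rank 78 and *fat-5* at rank 303. Among all genes that rose, with no limit on level, *fat-7* and *fat-5* were at ranks 16 and 24 of 181 in WT. These ranks were 26 and 15 of 1130 in *hlh-30*, 14 and 47 of 924 in the double strain, and 156 and 640 of 2598 in *pgph-2 o/e*. No sperm, oocyte or vitellogenin gene passed the test in WT on glucose, although the medians of the 3 lists were higher by 0.63, 0.75 and 0.95 on the log2 scale. Without any 1 library, the calls of *fat-5* and *fat-7* on glucose remained in all 4 genotypes, and the *pgph-2 o/e* values without its NGM replicate 1 were 1.41 for *fat-5* and 2.43 for *fat-7*.

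*fat-6*, the paralog of *fat-7* that is the more abundant stearoyl-CoA desaturase, answered differently. WT libraries held 550, 556, 559 and 580 CPM on NGM and 540, 476, 526 and 522 CPM on glucose, all 4 below the lowest NGM library, and the log2 fold change of -0.11 did not pass the test (95% interval -0.24 to 0.01, edgeR adjusted P = 0.245). In *pgph-2 o/e* the NGM libraries held 683, 649, 600 and 591 CPM and the glucose libraries 549, 534, 578 and 567 CPM (log2 fold change -0.18, edgeR adjusted P = 0.196). *hlh-30* animals had 448, 418, 443 and 493 CPM on NGM and 683, 637, 709 and 742 CPM on glucose, so that every glucose library lay above every NGM library. The double strain had 382, 382, 358 and 328 CPM on NGM and 516, 447, 486 and 541 CPM on glucose, again without overlap. *fat-6* rose by 0.64 ± 0.07 (SE) in *hlh-30* and by 0.46 ± 0.07 in the double strain on the log2 scale (edgeR adjusted P = 0.0011 and 0.00223). The difference between *hlh-30* and WT in the response of *fat-6* was 0.73 ± 0.08 on the log2 scale (edgeR adjusted P = 0.002), and *fat-6* was the only one of the 10 genes to pass that test, in which 1.45% of all genes did. Without the replicate 1 libraries of the 4 groups it was 0.75 (edgeR adjusted P = 0.0519). Of 36 sperm genes none passed in the same test, and with the sperm mean as a covariate the value for *fat-6* was 0.63.

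Summed over the 3 genes that place the first double bond, transcripts per kb were 537 ± 12.1 (SD, n = 4) CPM per kb in WT on NGM and 747 ± 46.8 on glucose, and 626 ± 43.7 and 799 ± 50.3 in *pgph-2 o/e*. The corresponding sums were 430 ± 26.6 and 889 ± 62.3 in *hlh-30*, and 350 ± 29.7 and 641 ± 87.8 in the double strain. Within every genotype the lowest glucose library exceeded the highest NGM library. *fat-6* made up 86.4 to 89.8% of this sum on NGM and 59.3 to 67.1% on glucose, as means of the 4 genotypes. For WT animals the share of *fat-7* was 6.60% on NGM and 28.1% on glucose, for *pgph-2 o/e* it was 6.69% and 26.8%, for *hlh-30* 7.01% and 21.6%, and for the double strain 4.77% and 19.7%. Shares depend on how reads that match both *fat-6* and *fat-7* were counted. They also depend on the exon lengths used, since the deposited lengths of *fat-5* and *fat-6* are longer and would lower the levels per kb of both.

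**Figure D3:**
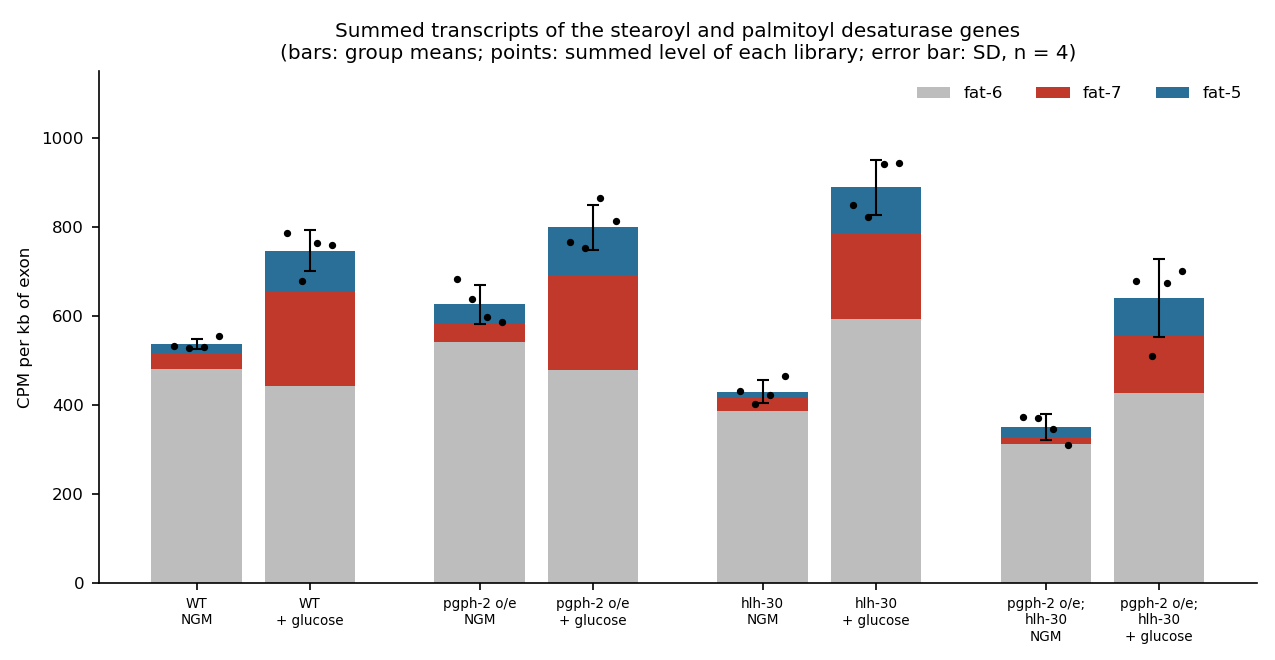
Summed level (y axis, CPM per kb of exon) of *fat-6* (grey), *fat-7* (red) and *fat-5* (blue) in the 8 groups, as stacked group means, with points for the sum in each library and an SD bar (n = 4). The glucose bars are taller in every genotype, mainly through *fat-7* and *fat-5* in WT and *pgph-2 o/e*, with *fat-6* also higher in *hlh-30* and the double strain.

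The genes of polyunsaturated fatty acid synthesis varied little with glucose. *fat-3* and *fat-4*, whose products include arachidonic and eicosapentaenoic acid, did not pass the test in any of the 12 comparisons between groups. Across all 32 libraries *fat-3* ranged between group means of 175 and 220 CPM and *fat-4* between 314 and 368 CPM. The 95% intervals of their glucose log2 fold changes lay within -0.46 and 0.22 for *fat-3* and within -0.46 and 0.15 for *fat-4* in all 4 genotypes. *fat-1*, the omega-3 desaturase, passed only in the double strain, where it had 437, 450, 480 and 479 CPM on NGM and 547, 515, 575 and 584 CPM on glucose (log2 fold change 0.26 ± 0.06, edgeR adjusted P = 0.0114). That call was lost when all 32 libraries shared a fit (0.26, edgeR adjusted P = 0.159). *fat-2*, which makes linoleic acid, in the double strain had 785, 784, 820 and 789 CPM on NGM and 1084, 912, 1074 and 1177 CPM on glucose, a log2 fold change of 0.42 ± 0.07 (edgeR adjusted P = 0.00274). In WT animals the *fat-2* value was 0.00 with a 95% interval of -0.21 to 0.21, and in *pgph-2 o/e* and *hlh-30* it was 0.15 and 0.14 (edgeR adjusted P = 0.365 and 0.0573).

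The elongase *elo-5*, needed for branched-chain fatty acids, fell on glucose in WT and in *hlh-30*. WT libraries held 267, 279, 244 and 320 CPM on NGM and 195, 173, 171 and 184 CPM on glucose, and *hlh-30* libraries 336, 333, 350 and 348 CPM on NGM and 211, 254, 217 and 226 CPM on glucose, with no overlap in either genotype. The log2 fold changes were -0.61 ± 0.09 (SE) and -0.57 ± 0.06 (edgeR adjusted P = 0.00451 and 0.00129). In *pgph-2 o/e* the medium made little difference to *elo-5*, with 193, 223, 235.2 and 243 CPM on NGM and 225, 234, 278 and 215 CPM on glucose (log2 fold change 0.09, 95% interval -0.16 to 0.34, edgeR adjusted P = 0.552). The double strain had 169, 213, 210 and 238 CPM on NGM and 155, 168, 211 and 160 CPM on glucose (-0.26 ± 0.11, edgeR adjusted P = 0.15). The glucose responses of *pgph-2 o/e* and WT differed by 0.69 ± 0.14 for *elo-5* on the log2 scale (edgeR adjusted P = 0.0012), and by 0.73 without the replicate 1 libraries.

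*elo-2*, which makes stearic acid from palmitic acid, went in opposite directions. In WT its levels were 210, 268, 260 and 344 CPM on NGM and 249, 157, 207 and 192 CPM on glucose, where the groups overlapped and the log2 fold change of -0.42 ± 0.16 did not pass (edgeR adjusted P = 0.157). In *hlh-30* they were 355, 397, 395 and 365 CPM on NGM and 259, 346, 279 and 265 CPM on glucose, all lower on glucose, with a log2 fold change of -0.37 ± 0.09 (edgeR adjusted P = 0.0297), a call that was lost without NGM replicate 1, 2 or 3 or glucose replicate 1 or 4. In *pgph-2 o/e* *elo-2* had 296, 217, 240 and 230 CPM on NGM and 267, 319, 374 and 329 CPM on glucose, a log2 fold change of 0.40 ± 0.13 (edgeR adjusted P = 0.0348). The double strain showed 214, 262, 270 and 312 CPM on NGM and 265, 285, 277 and 270 CPM on glucose (0.05 ± 0.09, edgeR adjusted P = 0.769). The difference between the *pgph-2 o/e* and WT responses of *elo-2* was 0.81 ± 0.21 on the log2 scale (edgeR adjusted P = 0.00732), and that call was lost without the libraries of replicate 2, 3 or 4 (lowest value 0.62), whereas without those of replicate 1 the difference was 1.23 (edgeR adjusted P = 6.83e-05). *elo-1* rose on glucose only in *pgph-2 o/e*, from 493, 394, 393 and 407 CPM to 508, 538, 561 and 536 CPM (log2 fold change 0.35 ± 0.11, edgeR adjusted P = 0.0254). Without NGM replicate 1, its highest NGM library, the *elo-1* value was 0.45 and that of *elo-2* was 0.51, and *fat-2* also passed, with 0.27 (edgeR adjusted P = 0.00897). The *elo-2* and *elo-1* calls in *pgph-2 o/e* were each lost without NGM replicate 2, 3 or 4 or glucose replicate 2 or 3, and that of *elo-2* also without glucose replicate 4 (highest edgeR adjusted P = 0.0999 and 0.0720).

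In these glucose comparisons, 4 of the 10 genes passed in *pgph-2 o/e* where 38.8% of all genes did and 17.3% rose, 5 in *hlh-30* where 13% did, and 5 in the double strain where 11.2% did and 6.05% rose. All 4 in *pgph-2 o/e* and all 5 in the double strain rose, and the share of 4 in 10 was close to that of all genes that passed. Germline markers also moved in *pgph-2 o/e*, where all 17 oocyte genes and all 6 vitellogenins fell on glucose (medians -1.61 and -3.37), 4 of 9 intestinal genes rose (median 0.32) and 5 of 8 hypodermal genes fell. In *hlh-30* no sperm gene or vitellogenin and 1 of 17 oocyte genes passed, and in the double strain no sperm gene, 6 of 17 oocyte genes and 2 of 5 vitellogenins, all 8 higher. Of the 9 intestinal genes, 1 fell in WT, 3 in *hlh-30* and 4 in the double strain (medians -0.22, -0.12 and -0.16). With the sperm mean as a covariate the *elo-1* and *elo-2* values of *pgph-2 o/e* were 0.72 and 1.18, against 0.35 and 0.40 without it. They no longer passed (edgeR adjusted P = 0.411 and 0.144), and *fat-5* and *fat-7* still rose (1.88 and 3.07, edgeR adjusted P = 0.0141 and 0.00272). Summed sperm levels of *pgph-2 o/e* were 2530 to 4236 CPM on NGM and 215 to 604 CPM on glucose. The covariate and the medium therefore cannot be told apart in that fit. The part of the germline in these values was not tested further.

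**Figure D4:**
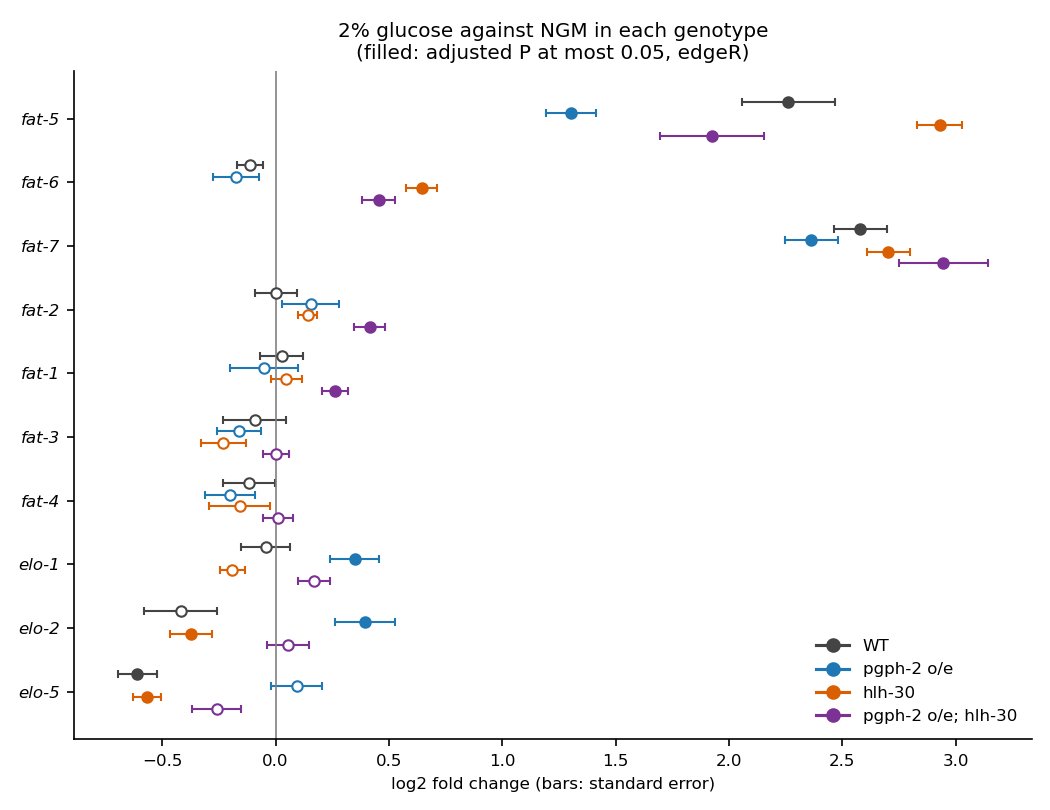
Log2 fold change on 2% glucose against NGM (x axis) of the 10 genes in WT (grey), *pgph-2 o/e* (blue), *hlh-30* (orange) and the double strain (purple), with SE bars, filled where the adjusted P was at most 0.05 by edgeR. *fat-7* lies between 2.36 and 2.95 and *fat-5* between 1.30 and 2.93, while the other 8 genes lie between -0.61 and 0.64.

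The next question was what *pgph-2* overexpression changed in WT background. On NGM, *fat-5* alone of the 10 genes passed, where 6.9% of all genes did and 4.37% rose. It was higher in every *pgph-2 o/e* library, at 44.5 to 56.2 CPM against 16.8 to 33.7 CPM, and the log2 fold change was 1.14 ± 0.21 (SE), or 2.21-fold (edgeR adjusted P = 0.00774). Without *pgph-2 o/e* replicate 1 the value for *fat-5* was 1.05, and without WT replicate 1, the highest WT library, it was 1.43. The other 9 genes had log2 fold changes of -0.32 to 0.23. In the same comparison 30 of 35 sperm genes and 16 of 17 oocyte genes rose (medians 0.94 and 1.31), and with the sperm mean as a covariate the *fat-5* value was 0.36 (edgeR adjusted P = 0.909). Since the sperm list did not overlap between the groups, the covariate and the genotype cannot be told apart in that fit.

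On glucose, *pgph-2 o/e* no longer differed detectably from WT in *fat-5* (0.19 ± 0.09, edgeR adjusted P = 0.121), and *fat-2* and the 3 elongases rose instead. Log2 fold changes were 0.37 ± 0.09 for *fat-2*, 0.26 ± 0.09 for *elo-1*, 0.68 ± 0.14 for *elo-2* and 0.39 ± 0.09 for *elo-5* (edgeR adjusted P = 0.00722, 0.034, 0.00298 and 0.00496). For these 4 genes every *pgph-2 o/e* library lay above every WT library, as for 19% of all genes. The *elo-1* call was lost without *pgph-2 o/e* replicate 2, 3 or 4 or WT replicate 2 or 4 (highest edgeR adjusted P = 0.0886), whereas those of *fat-2*, *elo-2* and *elo-5* remained without each library in turn. The count of 4 stood against 41.5% of all genes that passed and 19.5% that rose. All 35 sperm genes, 16 of 17 oocyte genes and all 6 vitellogenins fell in this comparison (medians -2.70, -1.06 and -3.68). Of the 9 intestinal genes 7 rose, with a median of 0.31, in the direction of the 4 genes and close in size to *fat-2*, *elo-1* and *elo-5*, while 4 of 8 hypodermal genes fell and 2 of 6 muscle genes rose. None of the 4 genes passed with the sperm mean as a covariate, when 1.02% of all genes did. The part of these tissues was not tested further, and the sperm levels of the groups did not overlap.

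Loss of *hlh-30* had small effects on the family in WT background. On NGM, the 3 elongases rose and *fat-6* fell, 4 of the 10 genes where 15.2% of all genes passed. *fat-6* fell by 0.31 ± 0.06 on the log2 scale, and *elo-1*, *elo-2* and *elo-5* rose by 0.37 ± 0.08, 0.49 ± 0.12 and 0.31 ± 0.08 (edgeR adjusted P = 0.0136, 0.0207, 0.0289 and 0.029). All *hlh-30* libraries lay above all WT libraries for the elongases, and below them for *fat-6*. With *fat-2* (higher) and *fat-5* (lower), which did not pass, libraries of 6 of the 10 genes did not overlap, against 24.6% of all genes. The elongase calls depended on single libraries. Those of all 3 were lost without WT replicate 2 or 3 or *hlh-30* replicate 2, those of *elo-2* and *elo-5* also without *hlh-30* replicate 1 or 3, and that of *elo-5* without WT replicate 1. The *fat-6* call remained without each library, and without WT replicate 2 it was the 1 gene of the 10 that passed. *fat-7*, at 32.2 to 34.9 CPM against 33.9 to 46.7 CPM in WT, did not pass (-0.23 ± 0.09, edgeR adjusted P = 0.11). On glucose *fat-6* was instead higher in *hlh-30* than in WT, by 0.42 ± 0.06, and *fat-2*, *elo-2* and *elo-5* were higher by 0.31 ± 0.08, 0.51 ± 0.14 and 0.33 ± 0.07 (edgeR adjusted P = 0.00153, 0.0146, 0.0164 and 0.00672). These calls remained without each library in turn, and their count of 4 stood against 45.1% of all genes that passed and 21.4% that rose. *fat-7* and *fat-5* did not pass in *hlh-30* on glucose (-0.13 and 0.13, edgeR adjusted P = 0.365 and 0.296).

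In *hlh-30* on NGM, 28 of 35 sperm genes and 7 of 17 oocyte genes fell (medians -1.29 and -0.45), and on glucose 35 of 35 and 16 of 17 (medians -3.27 and -1.37). Intestinal genes rose in 3 of 9 cases on NGM and 4 of 9 on glucose, with 1 lower on each medium (medians 0.12 and 0.19), and 4 and 6 of 8 hypodermal and 5 and 4 of 6 muscle genes fell. With the sperm mean as a covariate, the fall of *fat-6* on NGM was kept, at -0.47 (edgeR adjusted P = 0.0134), and the other 7 calls of *hlh-30* against WT were not. Summed sperm levels did not overlap between *hlh-30* and WT on either medium, so the covariate and the genotype cannot be told apart there.

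The double strain was compared with each parent strain to see which levels depended on *hlh-30* when *pgph-2* was overexpressed. *pgph-2* itself was higher in the double strain than in *pgph-2 o/e* on NGM and lower on glucose, without overlap. Against *pgph-2 o/e* on NGM, the 3 genes that place the first double bond fell together: *fat-7* by 1.32 ± 0.11, *fat-6* by 0.79 ± 0.11 and *fat-5* by 0.95 ± 0.20 on the log2 scale (edgeR adjusted P = 3.07e-06, 0.000136 and 0.00289). *fat-7* was 0.400 times, *fat-6* 0.578 times and *fat-5* 0.519 times its *pgph-2 o/e* level, without overlap between libraries, as for 22.5% of all genes. The count of 3 stood against 42.4% of all genes that passed and 22.6% that fell, all 7 other genes had log2 fold changes of -0.14 to 0.17, and the 3 calls remained without each library, including *pgph-2 o/e* replicate 1, without which the values were -1.27, -0.75 and -0.85, and *elo-1* also passed with 0.26 (edgeR adjusted P = 0.00478). In that comparison 34 of 35 sperm genes, all 17 oocyte genes and all 6 vitellogenins fell as well, as did 7 of 8 hypodermal genes, while 4 of 9 intestinal genes rose (median 0.18). With the sperm mean as a covariate the estimates were -1.31 for *fat-7*, -0.79 for *fat-6* and -0.97 for *fat-5*, with larger SE of 0.32, 0.32 and 0.62 (edgeR adjusted P = 0.117, 0.397 and 0.587). Summed sperm levels did not overlap between these groups, so the covariate and the genotype cannot be told apart in that fit.

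On glucose the double strain had less *fat-7* than *pgph-2 o/e*, by 0.77 ± 0.19 on the log2 scale, and less *elo-5*, by 0.49 ± 0.10 (edgeR adjusted P = 0.0227 and 0.0121), where 13.2% of all genes passed and 7.05% fell. The *fat-7* call was lost without *pgph-2 o/e* glucose replicate 4 (edgeR adjusted P = 0.0550), and without double-strain replicate 2, its lowest library at 81.8 CPM, the *fat-7* value was -0.58. Here the sperm genes moved the other way, 26 of 35 being higher in the double strain (median 1.13), while 4 of 9 intestinal and 4 of 6 muscle genes fell (medians -0.22 and -0.48).

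Against *hlh-30* on NGM, 6 of the 10 genes fell in the double strain, where 11.6% of all genes passed and 5.81% fell. They were *fat-7* at -0.86 ± 0.09, *elo-5* at -0.73 ± 0.09, *elo-2* at -0.52 ± 0.10, *elo-1* at -0.35 ± 0.06, *fat-6* at -0.32 ± 0.07 and *fat-2* at -0.13 ± 0.04 (edgeR adjusted P = 0.000579, 0.00149, 0.00873, 0.00487, 0.0171 and 0.0473). For all 6 genes no double-strain library reached the lowest *hlh-30* library, as for 9.17% of all genes. The call of *fat-2* was lost without any 1 of *hlh-30* replicates 1, 2 and 3 and of the 4 double-strain libraries, and that of *fat-6* without double-strain replicate 3, and the other 4 remained. *fat-5* had a log2 fold change of 0.71 ± 0.21 in the opposite direction and did not pass (edgeR adjusted P = 0.0559). No sperm gene passed here (median 0.26), 3 of 17 oocyte genes and 2 of 4 vitellogenins fell, and 3 of 9 intestinal genes fell and 1 rose (median 0.03), and all 6 calls were kept with the sperm mean as a covariate. On glucose only *fat-6* passed, with -0.51 ± 0.07 (edgeR adjusted P = 0.00965), where 4.26% of all genes did and 2.51% fell. The *fat-7* value was -0.62 with a 95% interval of -1.08 to -0.15 (edgeR adjusted P = 0.123). No sperm gene passed on glucose either, with a median of 1.69, and 2 of 9 intestinal genes fell.

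**Figure D5:**
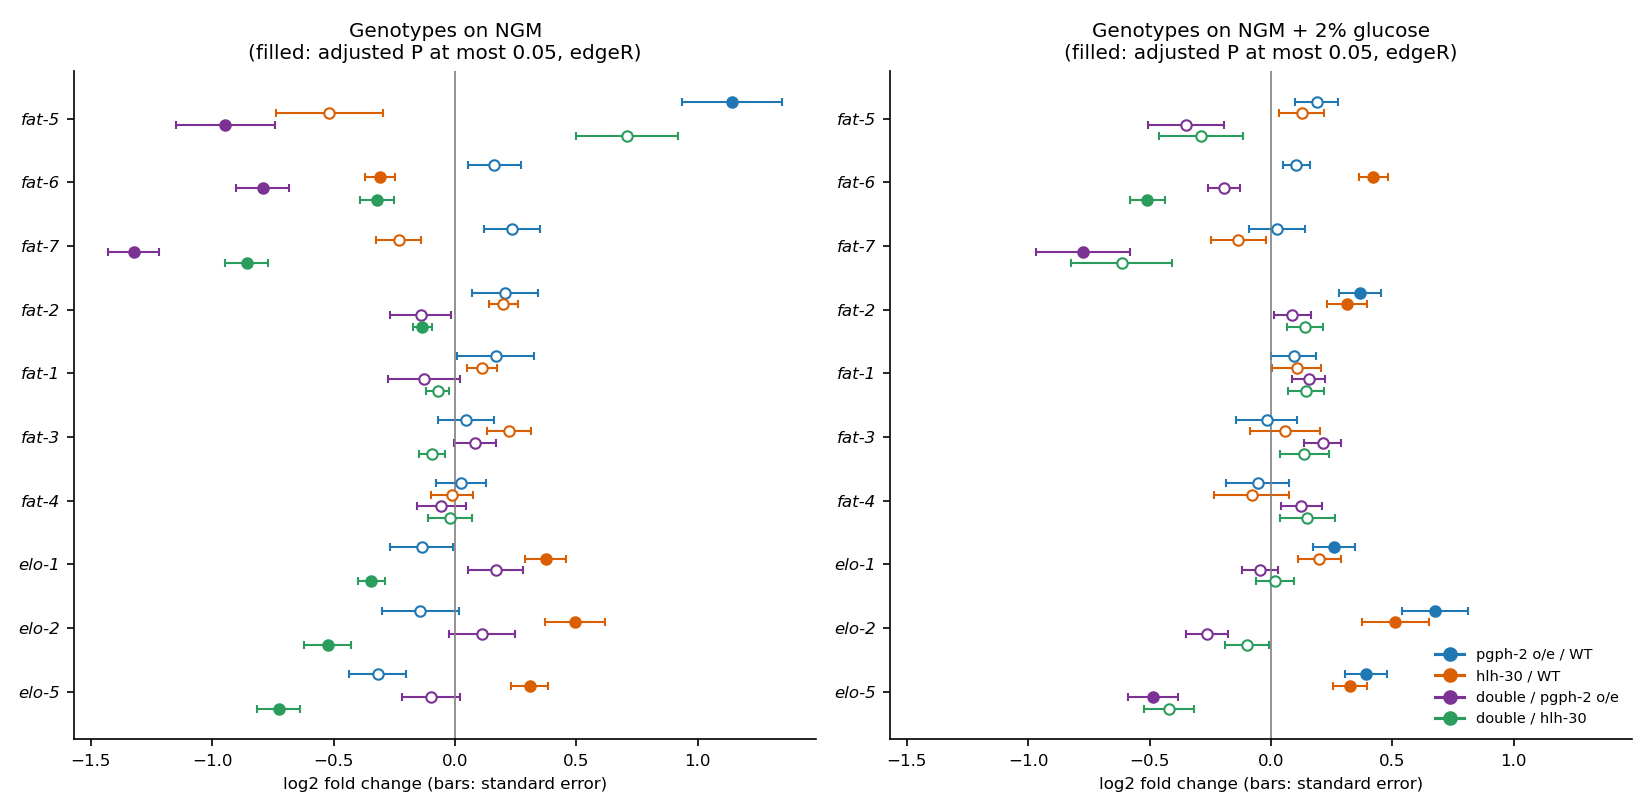
Log2 fold changes (x axis, with SE bars) of the 10 genes between genotypes on NGM (left) and on NGM with 2% glucose (right), for *pgph-2 o/e* against WT (blue), *hlh-30* against WT (orange), and the double strain against *pgph-2 o/e* (purple) and against *hlh-30* (green), filled where the adjusted P was at most 0.05 by edgeR. On NGM *fat-7* is lowest in the double strain, at -1.32 and -0.86 against its parents, and *fat-5* is higher in *pgph-2 o/e* by 1.14.

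Whether *pgph-2* overexpression acted differently with and without *hlh-30* was tested as an interaction on each medium. Since *pgph-2* levels differed between *pgph-2 o/e* and the double strain on both media, these tests do not compare equal overexpression. On NGM, *fat-7* and *fat-6* passed, 2 of the 10 genes where 3.95% of all genes did and 1.67% were negative. *pgph-2 o/e* changed *fat-7* by 0.23 in WT background, which did not pass, and by -0.86 in *hlh-30* background, a difference of -1.06 ± 0.14 on the log2 scale (edgeR adjusted P = 0.000547). For *fat-6* these values were 0.16 and -0.32, with a difference of -0.45 ± 0.11 (edgeR adjusted P = 0.0339). The *fat-7* difference remained when any replicate number was left out of the 4 groups, with -0.91 without the replicate 1 libraries, while the *fat-6* call was lost without those of replicate 2, 3 or 4 (highest edgeR adjusted P = 0.215). No sperm gene passed in this test, but 15 of 17 oocyte genes and 3 of 6 vitellogenins did, all lower, and with the sperm mean as a covariate the *fat-7* and *fat-6* differences were -1.08 and -0.49 and still passed.

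On glucose the interaction passed for *fat-6* at -0.58 ± 0.09, *elo-2* at -0.74 ± 0.17 and *elo-5* at -0.77 ± 0.14 (edgeR adjusted P = 0.000329, 0.00376 and 0.000705), where 38.5% of all genes passed and 17.3% were negative, and for *fat-7* it was -0.60 with a 95% interval of -1.15 to -0.05 (edgeR adjusted P = 0.078). All 35 sperm genes had the opposite sign in that test (median 4.43), 5 of 9 intestinal genes passed with the same negative sign as the members (median -0.40), and the 3 calls were lost with the sperm mean as a covariate. The comparisons with glucose and genotype share groups, so their values are not independent of each other. In the test of *pgph-2 o/e* by glucose, 3 of the 10 genes passed, *fat-5*, *elo-2* and *elo-5*, where 33.8% of all genes did. Without the replicate 1 libraries 5 passed, with 6583 of all 15861 genes, *fat-2* and *elo-1* being added with 0.39 and 0.64 (edgeR adjusted P = 0.0210 and 0.00111).

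Other genes of the pathway were examined as 4 lists. The 6 remaining elongase genes included *elo-6*, the partner of *elo-5* in branched-chain fatty acid synthesis, which fell on glucose in WT and in *hlh-30* by 0.45 ± 0.07 and 0.48 ± 0.11 on the log2 scale (edgeR adjusted P = 0.00712 and 0.0289), in the 2 genotypes in which *elo-5* fell. It was the only one of the 6 to pass in either comparison, where 3.61% and 13% of all genes did. The 6 genes of malonyl-CoA supply and the elongation cycle showed no call on glucose in WT, *pgph-2 o/e* or the double strain, and in *hlh-30* *acs-1*, an acyl-CoA synthetase for branched-chain fatty acids, and *art-1*, an enoyl reductase homolog, fell by 0.61 ± 0.12 and 0.17 ± 0.05 (edgeR adjusted P = 0.0126 and 0.0415). The acetyl-CoA carboxylase *pod-2* was higher than in WT by 0.68 ± 0.16 in *pgph-2 o/e* on glucose and by 0.44 ± 0.12 and 0.71 ± 0.15 in *hlh-30* on NGM and glucose (edgeR adjusted P = 0.00628, 0.0416 and 0.00581). All 3 electron donor genes passed in the double strain against *hlh-30* on NGM, where 11.6% of all genes did. *cytb-5.1* and *hpo-19* were lower, at -0.55 and -0.26, and *cytb-5.2* was higher, at 0.26 (edgeR adjusted P = 0.000716, 0.0129 and 0.0296).

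The list of regulators of desaturase genes held 11 genes, and whether each acts on *fat-5* or *fat-7* was not tested. On glucose 1 of the 11 passed in WT, 3 in *pgph-2 o/e*, 3 in *hlh-30* and 2 in the double strain. In these comparisons 3.61%, 38.8%, 13% and 11.2% of all genes passed. In WT *nhr-66*, a nuclear hormone receptor that partners NHR-49, was the only one to pass (0.35 ± 0.08, edgeR adjusted P = 0.0467), and *nhr-66* also rose in *hlh-30* and the double strain, by 0.31 and 0.58 (edgeR adjusted P = 0.0342 and 0.00949). *nhr-49*, a receptor needed for *fat-7* expression, rose on glucose in *pgph-2 o/e*, *hlh-30* and the double strain by 0.39 ± 0.09, 0.24 ± 0.06 and 0.38 ± 0.08 (edgeR adjusted P = 0.00469, 0.0314 and 0.0091). *sbp-1*, the worm SREBP, and *nhr-13* rose on glucose in *pgph-2 o/e* alone, by 0.72 ± 0.12 and 1.15 ± 0.16 (edgeR adjusted P = 0.000739 and 0.000279). *iglr-2*, which acts with *paqr-2* in membrane fluidity, fell by 0.19 ± 0.05 in *hlh-30* (edgeR adjusted P = 0.0302). Between genotypes on glucose, *sbp-1* was higher than in WT by 1.02 ± 0.12 in *pgph-2 o/e* and by 0.76 ± 0.11 in *hlh-30*, *nhr-80* by 0.43 ± 0.08 and 0.48 ± 0.07, and the Mediator subunit gene *mdt-15* by 0.31 ± 0.07 and 0.24 ± 0.08 (edgeR adjusted P = 0.000197, 0.00142, 0.00204, 0.00164, 0.00771 and 0.0454). The values between genotypes on glucose, and those for glucose in *pgph-2 o/e*, rest on comparisons in which all 35 sperm genes fell. No sperm gene passed on glucose in WT, *hlh-30* or the double strain.

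The genes most like *fat-7* across the 32 libraries, among 10525 genes that averaged 5 CPM or more, were *mtrr-1* (r = 0.933), *dop-4* (0.932), *kel-8* (0.921), *far-3* (0.915) and *nhr-43* (0.914), by Pearson's r of log2 CPM. In WT *far-3*, a fatty acid and retinol binding protein gene, had 13.6 ± 3.38 (SD, n = 4) CPM on NGM and 273 ± 15.9 CPM on glucose. *mtrr-1*, which encodes methionine synthase reductase, had 239 ± 16.4 and 310 ± 16.8 CPM in these groups. Those most like *fat-2* were *sup-26* (0.860), *lbp-1* (0.859), *flp-11* (0.848), *flp-16* (0.841) and *toe-4* (0.835). These correlations describe 32 libraries that share 4 genotypes and 2 media and are given without a test. Within the family, *fat-5* and *fat-7* had r = 0.901 over the 32 libraries and 0.271 after group means were subtracted, whereas *fat-1* and *fat-2* had 0.834 and 0.908, and *fat-3* and *fat-4* 0.810 and 0.884. The points of each pair share library scaling, and *fat-1* with *fat-2* and *fat-3* with *fat-4* are also chromosomal neighbours.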

How the data were processed

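The deposited file holds raw read counts per gene for 32 libraries, which the authors made with Hisat2 and featureCounts 1.5.0-p3 on WBcel235, without normalization. Gene names were assigned through RefSeq locus tags (45305 names matched). CPM were computed here with edgeR 4.0.16 (R 4.3.3) and TMM. Lengths per kb are exon unions of the Ensembl annotation of WBcel235, since the deposited lengths of *fat-5* (2335 bases against 1104 of exon) and *fat-6* (3488 against 1166) differed from it.

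Each comparison was fitted on its own 8 libraries (16 for interactions) with edgeR's quasi-likelihood test after filterByExpr (minimum count 10, total 15). P values were Benjamini-Hochberg adjusted over all genes tested, and genes at or below 0.05 are said to have risen or fallen. SE is the log2 fold change divided by the root of F, and 95% intervals use the degrees of freedom of that test. Tests were checked on simulated data. For *pgph-2 o/e* against WT on NGM, 131 of 200 genes changed by 1 on the log2 scale (2 false calls among 15098 genes) and 183 of 200 changed by 2 (12 among 15095) were recovered, and for *pgph-2 o/e* by glucose 80 (3 among 15607) and 163 (6 among 15605). Alternatives were DESeq2 1.42.0, other scaling and filters, all 32 libraries in a fit, a replicate block, the sperm mean as covariate, a 2-fold limit (log2 of 1) and leaving out libraries. The study's methods call the 4 libraries of a group biological replicates of pooled worms, and the labels do not say whether they were grown as separate cultures, so P values measure the spread between these libraries.

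Named genes were the 10 members, *pgph-2* and *hlh-30*, pathway genes that passed in the comparison described, and the 5 genes most like *fat-7* and *fat-2*. The members were set by gene name and the lists by known function, both with earlier results of these data known. No sequence is printed, since no sequence table was used here.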

Additional observations from a re-analysis of the deposited data

Results flagged for a closer look

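In 6 of 80 groups of 4 libraries, the highest library lay further from the next than Dixon's 95% limit allows. Chance gives about 1 in 20. *fat-1* and *elo-1* were high in *pgph-2 o/e* replicate 1 on NGM, at 679 CPM (next 468) and 493 CPM (next 407), in the library whose TMM factor was 0.781. *fat-2* was high in *hlh-30* replicate 3 on NGM at 904 CPM (next 860) and in double-strain replicate 3 on NGM at 820 CPM (next 789). *fat-4* was high in double-strain replicate 1 on glucose at 377 CPM (next 350). *fat-5* was high in WT replicate 1 on NGM at 33.7 CPM (next 19.1), and the log2 fold change of *fat-5* on glucose in WT was 2.55 without that library.

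Of 40 interaction values, 9 passed the test of a difference between responses by edgeR's quasi-likelihood test, in tests in which 1.45% (*hlh-30* by glucose), 3.95% (*pgph-2 o/e* by *hlh-30* on NGM), 33.8% (*pgph-2 o/e* by glucose) and 38.5% (*pgph-2 o/e* by *hlh-30* on glucose) of all genes passed. The glucose response differed between *pgph-2 o/e* and WT for *fat-5* (-0.96), *elo-2* (0.81) and *elo-5* (0.69), and between *hlh-30* and WT for *fat-6* (0.73). The effect of *pgph-2 o/e* differed with *hlh-30* genotype for *fat-6* (-0.45) and *fat-7* (-1.06) on NGM, and for *fat-6* (-0.58), *elo-2* (-0.74) and *elo-5* (-0.77) on glucose.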

How the results depend on the processing

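Of 51 calls of the 10 genes, all 51 kept their direction and passed with DESeq2, with DESeq2 size factors and with at least 10 counts required in every library, and 49 did so without a filter and with all 32 libraries in a fit. With the sperm mean as a covariate 26 did so, 24 no longer passed and 1 turned its sign, *fat-5* in the *pgph-2 o/e* by glucose test (0.21). A 2-fold limit (log2 of 1) left 11. When single libraries, or all libraries of a replicate number for interactions, were left out, 319 of 372 values passed in the same direction, 53 did not pass and 0 reversed. For the 109 values that did not pass, there were 26 passes under another setting and 20 when libraries were left out. These are counted once for each value and setting, so that a value can be counted more than once. The lowest count of a member in a library was 230, for *fat-5*.

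Replicate numbers did not pair the libraries: in 0 of 12 comparisons did all 4 same-numbered deviations correlate above 0.1. With a replicate block, 44 of 51 calls were kept, and counts of genes that passed moved to 3 (double strain against *hlh-30* on glucose), 2 (glucose in *pgph-2 o/e*) and 1 (*pgph-2 o/e* by *hlh-30* on NGM).

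Counts of the 10 genes that passed moved as follows. With all libraries in a fit they were 2 for *pgph-2 o/e* against WT on NGM and 3 for the double strain against *hlh-30* on glucose, the latter also 3 with DESeq2 and 2 without a filter, when that of *pgph-2 o/e* by *hlh-30* on NGM was 1. With the sperm covariate they were 0 for *pgph-2 o/e* against WT on either medium, 1 and 0 for *hlh-30* against WT on NGM and glucose, 0 and 1 for the double strain against *pgph-2 o/e*, 2 for glucose in *pgph-2 o/e*, and 0 for the *pgph-2 o/e* by glucose and by *hlh-30* tests on glucose, and 0 to 2.18% of all genes passed in those fits. With the 2-fold limit, 1 gene passed for the double strain against *pgph-2 o/e* on NGM and for *pgph-2 o/e* by *hlh-30* on NGM, 2 for glucose in *pgph-2 o/e*, *hlh-30* and the double strain, and 0 in 9 others: *pgph-2 o/e* against WT on glucose, *hlh-30* against WT on both media, the double strain against *pgph-2 o/e* on glucose and against *hlh-30* on both media, *pgph-2 o/e* by glucose, *hlh-30* by glucose and *pgph-2 o/e* by *hlh-30* on glucose. The cause of these shifts was not tested.

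With libraries left out, counts ranged from 1 to 1 for *pgph-2 o/e* against WT on NGM and 3 to 4 on glucose, 1 to 5 for *hlh-30* against WT on NGM and 4 to 5 on glucose, 3 to 4 and 1 to 3 for the double strain against *pgph-2 o/e*, 4 to 7 and 1 to 2 against *hlh-30*, and for glucose 3 to 4 in WT, 2 to 5 in *pgph-2 o/e*, 4 to 7 in *hlh-30* and 5 to 6 in the double strain. Interaction counts ranged from 1 to 5 for *pgph-2 o/e* by glucose, 0 to 1 for *hlh-30* by glucose, and 1 to 2 on NGM and 3 to 4 on glucose for *pgph-2 o/e* by *hlh-30*. The numbers of all genes that passed moved too, from 3013 of 15950 to 6583 of 15861 for *pgph-2 o/e* by glucose, 66 of 15775 to 666 of 15776 and 3710 of 16011 to 6093 of 15834 for *pgph-2 o/e* by *hlh-30* on NGM and glucose, and 0 of 15853 to 1127 of 15917 for *hlh-30* by glucose, the former in the fit with 0 of the 10 genes.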

Other observations

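Of the elongase genes outside the 10, 3 (*elo-4*, *elo-7* and *elo-8*) were lower than in WT in both *pgph-2 o/e* and *hlh-30* on glucose. The log2 fold changes were -1.51 ± 0.15 (SE), -1.36 ± 0.27 and -2.39 ± 0.29 in *pgph-2 o/e*, and -1.59 ± 0.17, -2.39 ± 0.43 and -2.78 ± 0.62 in *hlh-30* (edgeR's quasi-likelihood test, adjusted P = 7.85e-05, 0.0028, 0.000203, 0.000666, 0.00353 and 0.00769). In the same comparisons all 35 sperm genes fell, as did 22% and 23.7% of all genes, and 1 of the 6 elongases outside the 10 rose in *pgph-2 o/e*. In *hlh-30* against WT on NGM, where 28 of 35 sperm genes fell, *elo-4* alone of the 3 passed (-1.17, adjusted P = 0.0243 by edgeR). In the double strain against *pgph-2 o/e* on NGM, 5 of the 6 fell, where 22.6% of all genes did. Over the 32 libraries the correlation of each member with the mean of the 36 sperm genes ranged from -0.52 for *elo-1* to 0.51 for *fat-4*, and was -0.25 for *fat-7* and -0.20 for *fat-5*, given as a description over libraries that share groups.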
